A study of Mus musculus with 38 samples.

Results

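The antiviral interferon effectors described here are 10 genes: Ifit1, Ifit2, Ifit3, Isg15, Isg20, Rsad2, Cmpk2, Usp18, Oasl1 and Oasl2. They were taken by symbol from the deposited RNA table, where each matched 1 of 11184 listed genes. All 10 reached the expression minimum of 1 RPKM in at least 4 libraries, as did 9942 listed genes in all. RPKM correct the reads of a gene for its length and for the depth of the library, so levels can be compared between genes. The members were named by function, not by a threshold on these values, although earlier results of the same data were known.

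The cells were bone marrow-derived macrophages of C57BL/6 mice, and no genetic change is given for any group. Unstimulated cells (M0, 0 h) were compared with cells given 5 ng/ml of lipopolysaccharide (LPS) together with 12 ng/ml of interferon-gamma (IFNg) for 4, 8, 16 or 24 h, which drives the inflammatory M1 state. In 3 further groups (LA 8h, LA 16h, LA 24h), the stimulated cells also received lactic acid from 4 h on, at a dose that the labels do not give. Each of the 8 RNA groups held 4 libraries, and H3K18la and H3K18ac (lactylation and acetylation of lysine 18 of histone H3) were each profiled in 1 ChIP-seq library of M0 and 1 of M1 at 24 h. The labels do not say whether the 4 libraries of a group came from separate mice or cultures, so p-values measure only the spread between these libraries. The time of the lactic acid groups was taken as hours after LPS and IFNg, as the sample label names it. The series' design text can also be read as hours after lactic acid, in which case each lactic acid group would be 4 h later than the group it is compared with.

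Type I interferon, made by macrophages when LPS is sensed, binds its receptor and activates a transcription factor complex that holds STAT2 and IRF9 and binds the interferon-stimulated response element (ISRE) in the promoters of its target genes. Promoters of IFNg target genes often hold the gamma-activated sequence (GAS). The target genes studied here encode proteins that bind foreign RNA, degrade RNA, alter the nucleotide pool or form and remove the ubiquitin-like protein ISG15. Many of these proteins limit the growth of viruses.

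The RefSeq promoter table (GRCm38.p6) held 9 of the members, in 12 windows that run from 250 bases before to 50 bases after a gene start. Both strands were searched for the ISRE core (GAAA, any 2 bases, GAAA), the GAS core (TTC, any 3 bases, GAA) and a kappa B-like run (GGG, any 5 bases, CC). The ISRE core was found in 4 members (Ifit1, Ifit3, Isg15 and Rsad2), in 4 of the 12 windows, and in 3.44% of all 32851 promoters in the table. The GAS core was found in Ifit2 and Isg20, in 2 of the 12 windows, against 8.30% of all promoters. The kappa B-like letters were found in 6 members (Ifit1, Ifit2, Isg20, Rsad2, Cmpk2 and Oasl1), in 7 of the 12 windows, against 50.8% of all promoters. Overlapping matches were kept, and a match is a description of the letters, not a tested binding site. The 200 bases before the gene start are printed for the 4 members with an ISRE core and for Isg20, the 1 member whose RNA rose from 4 h to 8 h. Capitals mark the ISRE core in the first 4 and the GAS core in Isg20. They lie at chr19:34640689-34640888 (plus strand), chr19:34583329-34583528 (plus), chr4:156200819-156201018 (minus), chr12:26456453-26456652 (minus) and chr7:78913224-78913423 (plus), and each is written 5′ to 3′ along its gene.
Ifit1: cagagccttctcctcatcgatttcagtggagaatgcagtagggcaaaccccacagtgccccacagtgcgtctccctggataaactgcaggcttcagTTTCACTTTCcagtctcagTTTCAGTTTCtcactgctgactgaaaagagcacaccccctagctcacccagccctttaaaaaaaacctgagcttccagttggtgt
Ifit3: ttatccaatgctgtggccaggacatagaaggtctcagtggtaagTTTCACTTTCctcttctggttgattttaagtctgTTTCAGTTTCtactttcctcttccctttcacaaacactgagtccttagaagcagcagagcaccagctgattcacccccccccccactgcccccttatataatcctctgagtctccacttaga
Isg15: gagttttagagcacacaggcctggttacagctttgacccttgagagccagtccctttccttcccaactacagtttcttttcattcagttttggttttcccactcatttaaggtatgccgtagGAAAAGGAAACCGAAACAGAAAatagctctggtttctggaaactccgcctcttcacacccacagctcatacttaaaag
Rsad2: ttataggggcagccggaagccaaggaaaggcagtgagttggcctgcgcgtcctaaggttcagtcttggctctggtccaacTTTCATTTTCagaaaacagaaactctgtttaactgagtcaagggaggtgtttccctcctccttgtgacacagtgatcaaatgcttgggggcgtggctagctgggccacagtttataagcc
Isg20: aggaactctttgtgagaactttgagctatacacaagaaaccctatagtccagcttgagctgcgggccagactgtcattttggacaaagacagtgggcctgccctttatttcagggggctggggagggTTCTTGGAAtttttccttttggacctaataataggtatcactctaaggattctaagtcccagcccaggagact
Counted from the gene start as 0, the Ifit1 cores lay at -104 to -95 and at -85 to -76, and the Ifit3 cores at -156 to -147 and at -122 to -113. Both genes held the same pair of 10-base cores on the minus strand, in the same order. Isg15 held 3 cores that overlap one another, from -78 to -57, and Rsad2 held 1, from -120 to -111. The GAS core of Isg20 lay at -73 to -65 from the gene start at base 78913424, and the windows of its other listed starts held none. The GAS core of Ifit2, at -241 to -233, lies outside the 200 bases, and Ifit2 RNA fell from 4 h to 8 h. A link between motif and time course was not tested.

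Sequencing depth, recovered as whole reads from the RPKM, ran from 60.6 to 103.9 M reads per library over the listed genes. Of 8 macrophage markers 8 were listed, with summed levels from 10542 to 54015 RPKM across libraries. None of 7 lymphocyte markers was listed. The list is a selected one, as 11165 of its 11184 genes have a deposited FDR under 0.05. A marker that is not listed may therefore still be expressed, and the purity of the cells was not tested. Of 8 neutrophil markers 4 were listed, with summed levels of 9.24 to 14.0 RPKM at 0 h and 50.1 to 76.7 RPKM at 4 h, and Mpo, Elane, Ly6g and Retnlg were not listed. Of 6 dendritic cell markers 1 was listed, at 0.0273 to 0.0784 RPKM at 0 h and 2.07 to 2.44 RPKM at 4 h. Of 5 stromal and endothelial markers 4 were listed, with summed levels of 0.241 to 2.99 RPKM. The part of other cells in the members' changes was not tested, and in bulk RNA fewer responding cells and less RNA per cell cannot be told apart.

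All 10 effectors rose within 4 h of LPS and IFNg, and then fell at very different speeds. Rsad2 and Cmpk2 rose the most and were the fastest to lose their level together with Ifit1, while Isg15, Oasl1 and Oasl2 kept most of their 4 h level at 8 h and Isg20 rose further. At 4 h all 10 members were higher than at 0 h, where 42.5% of all tested genes were higher and 42.7% lower. The median log2 fold change of the members was 4.93, with a range of 1.66 to 6.58, against a median of 0.00 over all tested genes. The test throughout was limma on log2(RPKM + 1), with an adjusted p under 0.05 over all tested genes as the threshold.

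Rsad2 encodes viperin, a radical SAM enzyme that makes a chain-terminating nucleotide, and Cmpk2, its neighbour on chromosome 12, encodes a mitochondrial nucleotide kinase. Rsad2 measured 18.3, 26.3, 32.4 and 23.7 RPKM in the 4 libraries at 0 h and 2129, 2754, 2493 and 2475 RPKM at 4 h. Cmpk2 measured 17.0, 22.7, 26.8 and 21.4 RPKM at 0 h and 1663, 2166, 1880.4 and 1919 RPKM at 4 h. Neither gene had a library at 4 h anywhere near its 0 h range. The mean of Rsad2 rose 97.9-fold, from 25.2 ± 5.87 to 2463 ± 256 RPKM (SD, n = 4), the highest mean of the members at 4 h. Its libraries did not overlap those of Isg15, the next by mean. The highest Cmpk2 library (2166 RPKM), however, lay above the lowest of Rsad2 (2129 RPKM). The log2 fold change of Rsad2 was 6.58 (SE 0.15, limma adjusted p = 2.7e-27), and that of Cmpk2 was 6.39 (SE 0.14, limma adjusted p = 1.6e-27). By 8 h Rsad2 had fallen to 199 to 274 RPKM and Cmpk2 to 110.5 to 161.9 RPKM, which is 9.90% and 7.46% of their 4 h means. At 24 h Cmpk2 lay between 18.3 and 29.4 RPKM, within reach of its 0 h libraries, and its log2 difference from 0 h of 0.14 (SE 0.14) did not pass the test (limma adjusted p = 0.37). Rsad2 at 24 h spanned 32.1 to 45.4 RPKM, overlapped the highest 0 h library and was 0.61 higher on the log2 scale (SE 0.15, limma adjusted p = 0.00051). Cmpk2 was the 1 member not called at 24 h against 0 h.

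The Ifit genes encode tetratricopeptide repeat proteins, of which that of Ifit1 binds RNA lacking the methylated cap of host messages. Ifit1 measured 16.6, 21.8, 25.1 and 21.2 RPKM at 0 h, 1209.7, 1572, 1404 and 1402 RPKM at 4 h, and 139.1, 106.5, 141.8 and 129.5 RPKM at 8 h. It rose 66.0-fold by 4 h and then fell 10.8-fold by 8 h (log2 fold change -3.43, SE 0.11, limma adjusted p = 4e-23). Ifit2 rose 32.7-fold, from 19.7 to 38.8 RPKM at 0 h to 751 to 998 RPKM at 4 h, and fell to 11.4% of that mean by 8 h. Ifit3 began at a similar level, 19.05 to 31.3 RPKM, but reached 326 to 456 RPKM, a 16.0-fold rise, and kept 21.1% at 8 h. The Ifit libraries at 4 h lay above those of every other time. From 16 h to 24 h neither Ifit2 (log2 difference -0.10, SE 0.17, limma adjusted p = 0.67) nor Ifit3 (-0.23, SE 0.14, limma adjusted p = 0.17) passed the test, and both stayed above 0 h at 24 h, by 1.14 and 0.93 on the log2 scale. Ifit3 and Ifit1 have near copies (Ifit3b, Ifit1bl1 and Ifit1bl2) whose reads could be split between them, so their levels are less certain. At 4 h the copies measured 44.2 ± 5.70, 262 ± 56.8 and 6.47 ± 0.672 RPKM (SD, n = 4).

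Isg15 is the ubiquitin-like modifier itself, and Usp18 is the protease that removes it from proteins and also dampens signalling at the interferon receptor. Isg15 was the most abundant member at 0 h, with 60.8, 69.8, 79.1 and 60.6 RPKM, and reached 1759.9, 2080.0, 1955 and 1998 RPKM at 4 h and 1692, 1357, 1733 and 1626 RPKM at 8 h. The 8 h libraries were all below those at 4 h, though by little: the mean kept 82.2% of its 4 h value. That fall of 0.29 on the log2 scale (SE 0.11, limma adjusted p = 0.024) no longer passed the test without 4 h replicate 2 (-0.25), 4 h replicate 4 (-0.27) or 8 h replicate 2 (-0.21). From 8 h on Isg15 was the most abundant member in every group, with no overlap with the next, and at 24 h it still measured 319 ± 61.7 RPKM (SD, n = 4). Usp18 rose 30.4-fold, from 11.4 to 15.2 RPKM at 0 h to 357 to 438 RPKM at 4 h. It kept 23.8% of that at 8 h and remained 1.45 higher on the log2 scale than 0 h at 24 h (SE 0.10, limma adjusted p = 2.1e-14).

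Isg20, a 3′ to 5′ exonuclease that degrades single-stranded RNA, had its highest level at 8 h, and was the 1 member that rose from 4 h to 8 h. It measured 3.11, 4.05, 4.12 and 4.03 RPKM at 0 h, 67.3, 87.1, 77.4 and 80.5 RPKM at 4 h, and 121.0, 95.1, 116.7 and 112.2 RPKM at 8 h. The libraries of the 3 times did not overlap. The mean at 8 h was 143% of that at 4 h (log2 fold change 0.51, SE 0.12, limma adjusted p = 0.00025). Isg20 then fell to 33.5 to 43.1 RPKM at 16 h and 18.7 to 33.1 RPKM at 24 h, where it was still 6.63-fold above 0 h.

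Oasl1 and Oasl2 resemble the 2′-5′ oligoadenylate synthetases and lie side by side on chromosome 5, but they differed in their range. Oasl1 had low 0 h levels of 4.46 to 6.68 RPKM and rose 58.9-fold, to 325 to 347 RPKM at 4 h. Oasl2 began at 30.4 to 39.8 RPKM and rose 3.21-fold, to 109.4 to 113.0 RPKM, the smallest rise of the 10 (log2 fold change 1.66, SE 0.07, limma adjusted p = 3.4e-20). At 8 h they kept 68.0% and 79.5% of their 4 h means. Between 8 h and 16 h Oasl1 fell by 1.97 on the log2 scale (SE 0.12, limma adjusted p = 1e-15) and Oasl2 by 0.63 (SE 0.07, limma adjusted p = 2.7e-09). Oasl2 thus held the largest share of its 4 h mean at 24 h, 44.8%, against 1.28% for Cmpk2. The last step of Oasl2, from 16 h to 24 h (-0.19, SE 0.07, limma adjusted p = 0.023), had overlapping libraries and did not pass without 16 h replicate 1 (-0.18), 16 h replicate 4 (-0.13) or 24 h replicate 2 (-0.13).

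**Figure D1:**
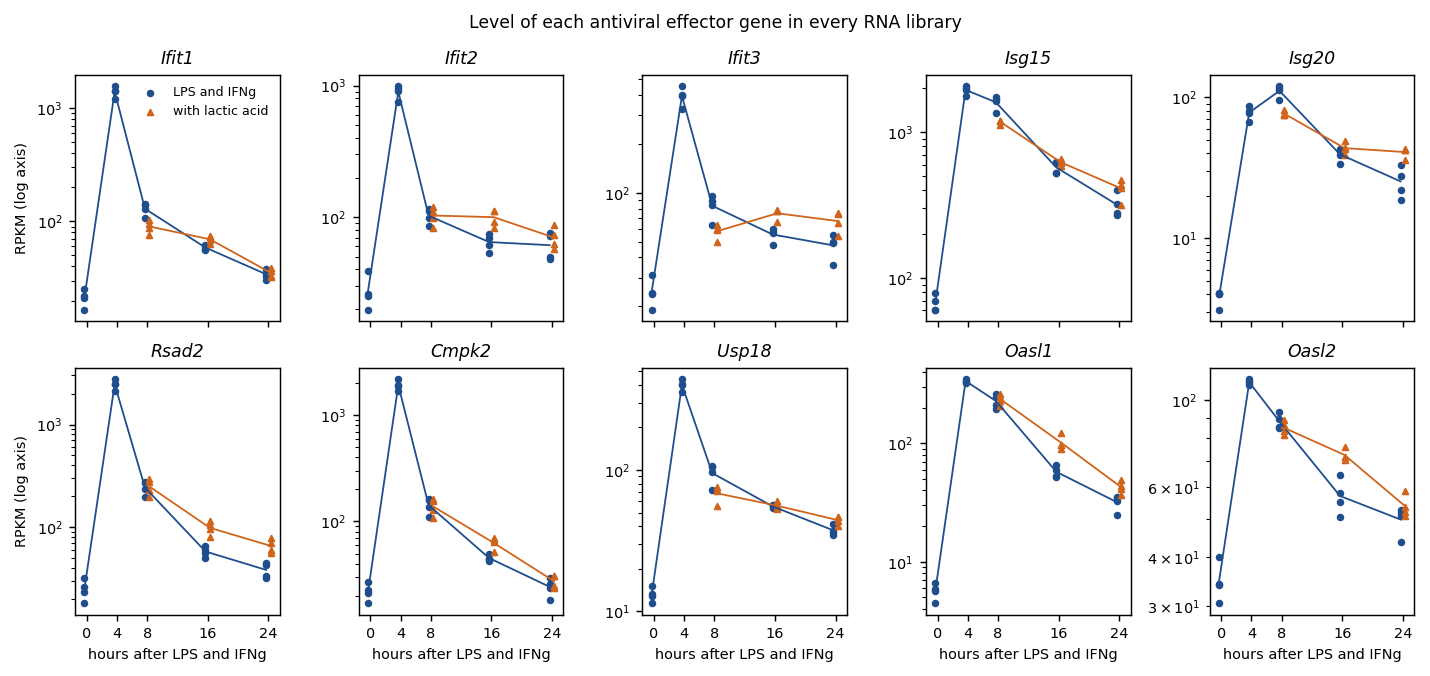
RPKM on a log axis against hours after LPS and IFNg for each of the 10 genes, with 1 point per library (circles without and triangles with lactic acid) and lines through the group means (n = 4). Every gene peaks at 4 h except Isg20, whose mean is highest at 8 h, and Isg15 stays above 269 RPKM in every library from 4 h on.

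Compared with the 4 h level, the members did not share a common decline. At 8 h against 4 h 9 members were lower and 1 higher, with a median log2 fold change of -2.16, where 36.9% of all tested genes were lower and 34.8% higher. The share of the 4 h mean left at 8 h was under 12% for Cmpk2, Ifit1, Rsad2 and Ifit2, 21.1% for Ifit3, 23.8% for Usp18 and at least 68.0% for Oasl1, Oasl2 and Isg15. No member lay between 23.8% and 68.0%. From 8 h to 16 h all 10 fell (median -1.30), where 34.2% of all tested genes were lower and 36.1% higher. From 16 h to 24 h 8 fell (median -0.62), against 23.3% of all tested genes lower and 24.1% higher.

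**Figure D2:**
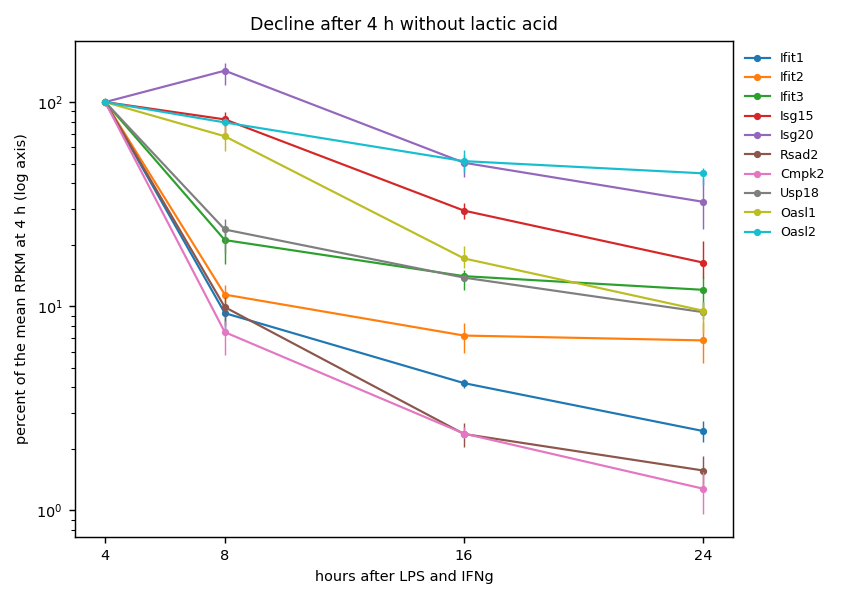
Mean RPKM as a percentage of the 4 h mean (log axis) at 4, 8, 16 and 24 h without lactic acid, with vertical lines from the lowest to the highest library (n = 4). Cmpk2, Ifit1, Rsad2 and Ifit2 drop to 7.46 to 11.4% by 8 h, while Oasl1, Oasl2 and Isg15 keep 68.0 to 82.2% and Isg20 rises to 143%.

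Against 0 h all 10 members were also higher at 8 h (median log2 fold change 2.70, with 40.7% of all tested genes higher and 42.1% lower) and at 16 h (1.34, with 39.9% higher and 36.9% lower), and 9 were at 24 h (1.03, with 39.9% higher and 37.3% lower). These comparisons share their 0 h libraries. Scaling by the reads in listed genes, in place of the effective library sizes that the authors used, moved the median log2 fold change of all tested genes against 0 h, which had lain between -0.01 and 0.02, to -0.43 (4 h), -0.40 (8 h), -0.30 (16 h) and -0.37 (24 h). Higher genes then made up 26.9% of those called at 4 h in place of 49.9%, and 20.4% in place of 51.6% at 24 h. All 10 members stayed higher at 4, 8 and 16 h under that scaling, and 6 did at 24 h: Ifit1 (0.21), Rsad2 (0.14) and Oasl2 (0.04) no longer passed.

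Genes upstream and beside these effectors rose at 4 h as well. The test called 16 of 18 interferon, receptor and signalling genes higher and 1 lower, and their median log2 fold change was 1.55. By the naming rule, the largest rises were those of the feedback inhibitors Socs3 (8.14) and Socs1 (5.45) and of the kinase Jak2 (3.53). Several others were named after their values were seen, since they form the type I interferon branch. Ifnb1, which encodes interferon-beta, had at most 0.0287 RPKM at 0 h and 1.60 to 3.54 RPKM at 4 h, and fell to 0.0534 to 0.226 RPKM at 8 h. Against 0 h Ifnb1 did not pass at 8 h (log2 0.17, limma adjusted p = 0.12). It passed at 16 h (0.33, limma adjusted p = 0.0052) and 24 h (0.24, limma adjusted p = 0.036), at no more than 0.346 RPKM. Stat2 rose from 34.5 ± 4.24 to 125.1 ± 1.88 RPKM and Irf9 from 15.8 ± 0.579 to 26.4 ± 0.947 RPKM at 4 h (SD, n = 4), and both fell by 8 h. Irf7, the transcription factor that amplifies interferon production, instead went from 39.6 ± 5.62 RPKM at 0 h to 374 ± 16.0 at 4 h and 599 ± 65.2 RPKM at 24 h (SD, n = 4).

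All 33 tested genes of a list of other antiviral interferon-stimulated genes were higher at 4 h, with a median log2 fold change of 2.08. Ifit1bl1 (5.67), Mx1 (5.25) and Mx2 (4.19) led that list. At 8 h against 4 h that list split, with 12 higher and 15 lower (median -0.11). All 4 genes of ISG15 conjugation were higher at 4 h, among them Herc6 (2.60), a ligase for ISG15, Ube2l6 (1.71), its conjugating enzyme, and Trim25 (1.15). All 14 tested IFNg-type targets were higher too, with a median of 3.84, led by the GTPase genes Gbp5 (6.58), Gbp2 (5.69) and Iigp1 (5.68). Scaled by listed reads, 28 of the 33 other antiviral genes were higher at 4 h and 1 was lower.

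The genes closest to the members in their course over the 32 libraries were looked up by Pearson's r of log2(RPKM + 1). Outside the 10, Mx2 (r = 0.988), Ifi208 (0.985), Apol9b (0.984), Socs1 (0.982) and Tor3a (0.981) lay nearest to the members' mean course. Cmpk2 was nearest to Ifih1 (0.995), Ifit1 to Enpp4 (0.992), Isg15 to Traf1 (0.991), Oasl1 to Ifi205 (0.991), Usp18 to Usb1 (0.991), Isg20 to Phf11a (0.988), Rsad2 to Cxcl11 (0.987) and Ifit2 to Daxx (0.986). Ifit3 was nearest to Ifit2 and Oasl2 to Oasl1, both at 0.981. Within the members the closest pairs were Ifit1 with Cmpk2 (0.988), Rsad2 with Cmpk2 (0.986) and Isg15 with Oasl1 (0.985). These values describe points that share their libraries and the rise at 4 h.

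Lactic acid was followed by lower levels of some effectors at 8 h and by higher levels at 16 h and 24 h. At 8 h Ifit1, Ifit3, Isg15, Isg20 and Usp18 were lower and none was higher, while Rsad2, Cmpk2, Ifit2, Oasl1 and Oasl2 did not pass the test. The count of 5 lower members compares with 36.0% of all tested genes lower and 32.1% higher, so a large part of all genes differed at this time. The libraries of 4 members (Isg15, Isg20, Ifit1 and Ifit3) did not overlap, as for 70.1% of all tested genes.

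Isg15 measured 1194, 1188, 1128 and 1192 RPKM with lactic acid at 8 h, against 1357 to 1733 RPKM without. The mean was 0.734 of that without, and no libraries overlapped (log2 fold change -0.44, SE 0.11, limma adjusted p = 0.0011). Isg20 measured 81.1, 74.7, 75.4 and 75.9 RPKM against 95.1 to 121.0 RPKM, also without overlap (-0.52, SE 0.12, limma adjusted p = 0.00022). Ifit1 measured 86.6, 95.3, 75.7 and 102.6 RPKM against 106.5 to 141.8 RPKM (-0.52, SE 0.11, limma adjusted p = 9e-05). The decrease of Ifit3 was 0.50 (SE 0.14, limma adjusted p = 0.0017), with no overlap, and that of Usp18 was 0.46 (SE 0.10, limma adjusted p = 0.00014), with overlap between 72.8 and 75.2 RPKM. Where a trend of the values on gene length was removed in each library, Isg15 (-0.02) and Ifit3 (-0.29) no longer passed and Oasl2 (-0.20) did. Rsad2 at 8 h held 197 to 295 RPKM with lactic acid and 199 to 274 RPKM without, a log2 difference of 0.03 (SE 0.15, limma adjusted p = 0.89).

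At 16 h Rsad2, Cmpk2, Ifit2, Ifit3, Oasl1 and Oasl2 were higher with lactic acid and none was lower, where 30.2% of all tested genes were higher and 31.0% lower. Oasl1 measured 121.4, 97.2, 97.6 and 89.3 RPKM with lactic acid against 51.7, 52.6, 59.6 and 65.8 RPKM without, and the groups stood clear of each other. The mean was 1.77-fold higher (log2 fold change 0.81, SE 0.12, limma adjusted p = 1.1e-06). Rsad2 measured 114.6, 95.4, 105.1 and 80.3 RPKM against 50.3 to 66.2 RPKM, a 1.70-fold difference (0.75, SE 0.15, limma adjusted p = 9.5e-05). Ifit2 was 1.55-fold, Cmpk2 1.39-fold, Ifit3 1.35-fold and Oasl2 1.27-fold higher, and none of these had overlapping libraries. Non-overlap held for 7 members, Ifit1 included, and for 56.9% of all tested genes. Ifit1 was 1.18-fold higher but missed the threshold (limma adjusted p = 0.052). With the gene length trend removed Isg15 (0.42), Ifit1 (0.30) and Isg20 (0.29) also passed.

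At 24 h Rsad2, Isg20, Ifit3, Oasl1, Isg15 and Usp18 were higher with lactic acid and none was lower, against 25.5% of all tested genes higher and 21.7% lower. Rsad2 measured 56.2, 78.2, 70.5 and 59.8 RPKM with lactic acid and 43.5, 32.1, 45.4 and 33.4 RPKM without, 1.71-fold higher on average (log2 fold change 0.77, SE 0.15, limma adjusted p = 0.00011). Isg20 measured 42.1, 43.0, 42.5 and 36.1 RPKM against 27.6, 18.7, 22.0 and 33.1 RPKM, 1.61-fold higher (0.70, SE 0.12, limma adjusted p = 1.3e-05). Neither gene had overlapping libraries. Oasl1 was 1.33-fold higher (0.41, SE 0.12, limma adjusted p = 0.0043), which made 3 members without overlap against 26.2% of all tested genes, whereas the libraries of Ifit3 (0.49, SE 0.14), Isg15 (0.37, SE 0.11) and Usp18 (0.23, SE 0.10) overlapped. The increase of Usp18 was close to the threshold (limma adjusted p = 0.048) and was lost when any 1 of 24 h replicates 1, 2 or 3 or LA 24h replicates 1, 2 or 3 was left out (0.20 to 0.24). In a fit of only the groups compared, neither Isg15 (limma adjusted p = 0.11) nor Usp18 (limma adjusted p = 0.081) passed. Ifit1 (0.04), Ifit2 (0.20), Cmpk2 (0.18) and Oasl2 (0.11) did not pass.

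The scaling of the libraries bears on the 24 h comparison. The effective library size was 0.756 to 0.864 of the reads in listed genes in the LA 24h libraries and 0.856 to 1.02 of them at 24 h. Scaled by those reads, the median log2 difference of all tested genes moved from 0.01 to -0.15, higher genes fell from 54.0% to 18.3% of those called, and 2 members, Rsad2 and Isg20, remained higher. Ifit3 (0.28), Oasl1 (0.20), Isg15 (0.16) and Usp18 (0.03) kept their sign and did not pass.

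**Figure D3:**
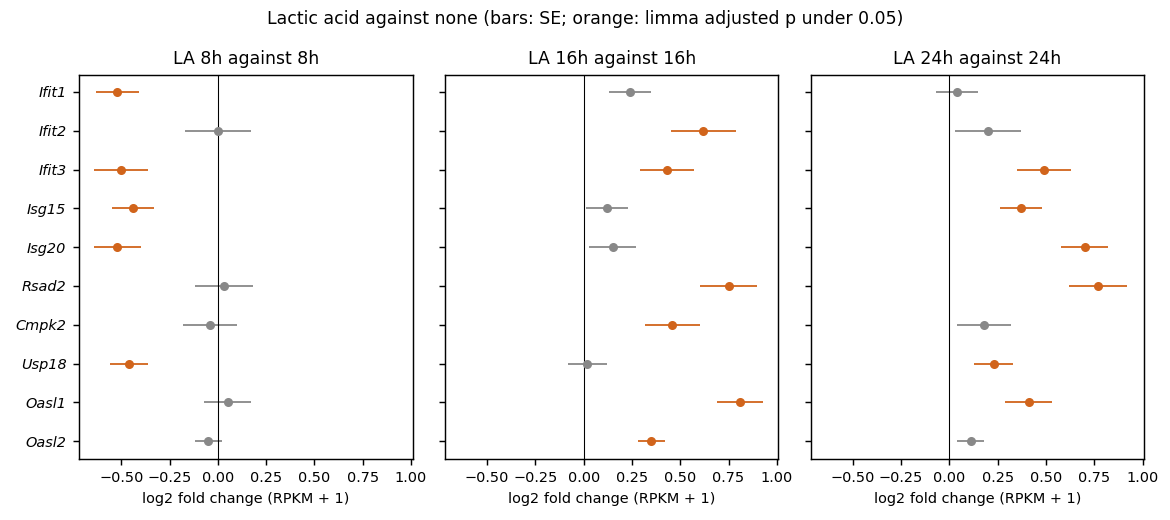
Log2 fold change of RPKM + 1 with lactic acid against without at 8, 16 and 24 h, with bars for the SE from the model of all 32 libraries and orange points where the limma adjusted p is under 0.05. At 8 h 5 genes are orange, all to the left of 0, and at 16 h and at 24 h 6 genes each are orange, all to the right.

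The change of the lactic acid effect with time was tested as an interaction. Between 8 h and 24 h the effect rose in 6 members (Ifit1, Ifit3, Isg15, Isg20, Rsad2 and Usp18) and fell in none, where 32.7% of all tested genes rose and 29.7% fell. The largest shifts were those of Isg20 (log2 1.22, SE 0.16, limma adjusted p = 3.9e-07) and Ifit3 (1.00, SE 0.19, limma adjusted p = 5.9e-05). Between 8 h and 16 h the effect rose in 8 members, all but Cmpk2 and Ifit2, and fell in none, where 10.6% of all tested genes rose and 10.2% fell. The members' median shift to 16 h was 0.65, against 0.00 over all tested genes. Scaled by listed reads, 8 members still rose between 8 h and 16 h, and 4 did between 8 h and 24 h. Genes that rose then made up 44.8% of all called genes in place of 51.1% between 8 h and 16 h. Between 8 h and 24 h they made up 26.0% in place of 52.4%. The median shift of all tested genes was then -0.04 to 16 h and -0.20 to 24 h. These interactions and the single comparisons share their libraries.

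Other lists moved in part with the effectors. Of 33 other antiviral genes 20 were lower and 5 higher with lactic acid at 8 h, and 14 were higher and 1 lower at 24 h, led by Phf11d (0.60), Ifi27 (0.59) and Ifi27l2a (0.44). Scaled by listed reads, the 24 h split turned to 3 higher and 6 lower. Of the 4 ISG15 conjugation genes 1, Trim25 (0.40), was higher at 24 h and none lower, and with that scaling 1 was higher and 2 were lower. Among 18 signalling genes 8 were higher and 4 lower at 24 h, with Ticam1 (0.82), the adaptor of the LPS receptor that leads to interferon production, Socs3 (0.42) and the receptor chain Ifnar2 (0.38) in the lead, and with that scaling 3 were higher and 7 lower. Of 14 IFNg-type targets 5 were higher and 3 lower, with Cd274 (1.07) and H2-Ab1 (0.88) higher and Irgm2 (-0.46) lower, and with that scaling 3 were higher and 4 lower. Irf9, named like Stat2 after its values were seen, had a log2 difference of -0.39 at 8 h (SE 0.04, limma adjusted p = 4.9e-09), of -0.06 at 16 h (SE 0.04, limma adjusted p = 0.20) and of 0.31 at 24 h (SE 0.04, limma adjusted p = 4.4e-07). The values of Stat2 were 0.16 at 8 h (SE 0.10, limma adjusted p = 0.16), 0.36 at 16 h (SE 0.10, limma adjusted p = 0.0023) and -0.14 at 24 h (SE 0.10, limma adjusted p = 0.24).

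Where the gene start of an effector was covered in both states, its H3K18la peak was longer and of higher enrichment in M1 than in M0. The share of effectors with a peak in M0 was close to that of all tested genes. Within 2 kb of a gene start, 9 of 10 members had an H3K18la peak in M0 and 10 in M1, and the counts for H3K18ac were the same. Of all 7823 tested genes with a gene start, 93.2% had an H3K18la peak in M0 and 77.6% in M1, and 95.0% and 93.1% had an H3K18ac peak. Ifit3 was the member without a peak in M0, where the nearest lay 12938 bases (H3K18la) and 12337 bases (H3K18ac) away. In M1 a 586-base H3K18la peak (chr19:34583875-34584460, fold enrichment 5.97) began 346 bases after the Ifit3 start, and an H3K18ac peak of 2177 bases began 359 bases after it. Fold enrichment is the authors' value for each peak over the caller's background. Each mark and state had 1 library, so these are values with no test.

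The length and fold enrichment of the peaks were compared after the data had been seen. For the 9 members whose gene start was covered in both states, all 9 had a longer H3K18la peak in M1, with a median length ratio of 3.55 (range 1.47 to 7.92). Of the 4562 genes so covered 31.8% had a longer H3K18la peak in M1, and the median ratio was 0.838. The peak over the Rsad2 start grew from 936 to 7415 bases (chr12:26453585-26460999 in M1), that over the Cmpk2 start from 1305 to 8556 bases (chr12:26463334-26471889) and that over the Isg15 start from 1233 to 6067 bases (chr4:156197750-156203816). In M0 Isg15 had 3 separate peaks between bases 156197664 and 156203904, a stretch that reached slightly past both ends of the 1 peak of M1. For Isg15 the longer M1 peak thus did not span a wider stretch. Isg20, with 1819 and 2668 bases, changed the least. The fold enrichment of these peaks was higher in M1 in 9 of 9 members, by 1.12 to 2.28 times, where it was higher in 7.58% of all genes so covered and the median ratio was 0.659. Ifit2 had the largest ratio, from 5.83 to 13.3, and Oasl2 the highest enrichment, from 11.03 to 16.95.

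H3K18ac showed the same direction, with longer M1 peaks over 9 of 9 gene starts, where 60.0% of 6573 genes so covered had a longer peak. The median length ratio was 3.66 in the members and 1.07 over all. A single M1 peak of 21128 bases (chr12:26451189-26472316) covered the starts of both Rsad2 and Cmpk2, which lie 12763 bases apart and are thus not separate counts here. In M0 these starts had peaks of 2051 and 1508 bases of their own, and further M0 peaks of 1259 and 2638 bases lay within the same stretch. For Isg15, separate M0 peaks between bases 156197017 and 156203990 reached past both ends of its M1 peak (chr4:156197685-156203903). Further M0 peaks of Oasl1 and Ifit2 also lay within the M1 peaks over their starts. Fold enrichment was higher in M1 in 9 of 9 members, by 1.09 to 1.90 times, against 36.8% of all genes so covered and a median ratio of 0.942. The M1 cells were taken at 24 h, when the members' RNA had fallen to between 1.28% and 44.8% of its 4 h mean. The libraries held 21.8 and 21.0 M mouse reads for H3K18la in M0 and M1, with 310066 and 141688 spike-in reads, and 36.6 and 32.9 M for H3K18ac, with 52482 and 50470. The peak values are not scaled by the spike-in, and the part of depth in peak length was not tested. For Usp18 both ends of the gene were taken as its start, since its strand is not in the tables used.

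**Figure D4:**
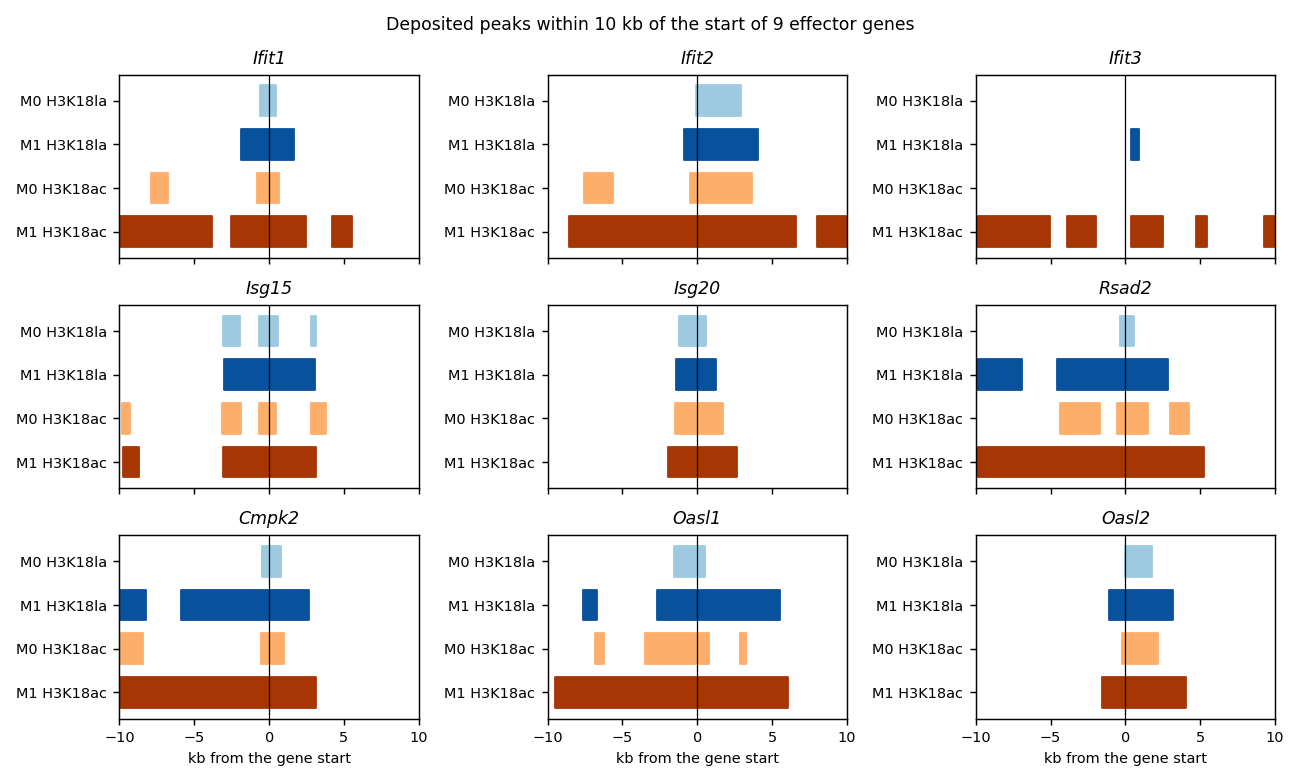
Deposited peaks within 10 kb of the start of 9 effector genes, as bars along the gene's direction in kb, for H3K18la (blue) and H3K18ac (orange) in M0 (light) and in M1 at 24 h (dark), 1 library each; Usp18 is left out because its strand is not in the tables used. Bars are clipped at 10 kb. The dark bars over the start are longer than the light ones in 8 of the 9 genes, and Ifit3 has no bar over its start in any list.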

How the data were processed

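The deposited RNA table holds RPKM. From the values, the authors divided by an effective library size rather than by all listed reads. HISAT2 2.1.0, featureCounts 1.5.0-p1, edgeR, Bowtie2 2.2.6, SAMtools 0.1.19 and MACS2 2.2.1 stand in the submitters' processing notes without role or order, with builds mm10 and GRCm38. The RNA kit keeps the strand, per the labels' protocols. The deposited table also holds the authors' log2 fold changes with 1 p-value and 1 FDR for each gene, not used here, and 11165 of its 11184 genes have a deposited FDR under 0.05, so every background share is that of a selected list. The deposited peak lists give a fold enrichment (ratio), −log10 p and −log10 q and a score for each peak, and the deposited spike-in table gives counts of reads. The peak threshold and control are not given in the sources used here, and input peaks were not analysed here.

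Genes that reached 1 RPKM in 4 or more libraries entered limma 3.58.1 (R 4.3.3) on log2(RPKM + 1), 1 mean per group over 32 libraries (24 residual degrees of freedom), with Benjamini-Hochberg adjustment over 9942 genes. Fold changes on this scale understate the change of low genes. Ratios are of mean RPKM. Whole reads were recovered for 100% of values (tolerance 0.05, chance 10.0%) and were tested with edgeR 4.0.16 and DESeq2 1.42.0 as alternatives. Each member had at least 496 reads in every library, so depth limits none of their levels much, and differences within the spread of 4 replicates cannot be resolved. The test was checked on simulated data.

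The members and lists were chosen with earlier results of these data known. Named are all members, the nearest genes by Pearson's r, and up to 3 called genes per list with the largest change at 4 h against 0 h and in LA 24h against 24 h. Same-numbered libraries were checked for pairing and did not pair. No column of other samples was present.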

Additional observations from a re-analysis of the deposited data

Results flagged for a closer look

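In 4 of 80 groups of 4 libraries, a member had 1 library far from the other 3 by Dixon's ratio, and chance alone sets apart about 1 in 20. These were the lowest libraries of Ifit3 in LA 16h (replicate 4, 66.1 RPKM), Isg15 in LA 8h (replicate 3, 1128 RPKM), Isg20 at 0 h (replicate 1, 3.11 RPKM) and Isg20 in LA 24h (replicate 4, 36.1 RPKM). The lactic acid effect at 24 h differed from that at 8 h, by the interaction in limma, for Isg20 (1.22 on the log2 scale), Ifit3 (1.00), Isg15 (0.81), Rsad2 (0.74), Usp18 (0.70) and Ifit1 (0.56). The effect at 16 h differed from that at 8 h for Ifit3 (0.93), Ifit1 (0.75), Oasl1 (0.75), Rsad2 (0.72), Isg20 (0.67), Isg15 (0.56), Usp18 (0.48) and Oasl2 (0.40). All 14 differences are in the direction of a higher effect at the later time.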

How the results depend on the processing

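No member changed sign among called values under any alternative run. Scaled by listed reads, members higher in LA 24h vs 24h fell from 6 to 2, since the size of these libraries is set differently; every other count of members stayed within 1.5 times. Leaving out 1 library at a time gave 5 to 6 members higher in LA 24h vs 24h, 6 to 7 in LA 16h vs 16h, 8 to 9 lower in 8h vs 4h, 7 to 8 lower in 24h vs 16h, 6 to 7 in the interaction of 24 h with 8 h and 8 to 10 in that of 16 h with 8 h, and the main counts elsewhere. Over all of these runs 12 single calls were lost and 13 gained, and over all the other alternatives 19 were lost and 21 gained. The 9 of 9 longer and higher M1 peaks were a comparison chosen after seeing the data. A cut to peaks of −log10 q of at least 5, also chosen then, left 9 of 9 for both marks. That cut could not change the counts, since the lowest value among the peaks compared was 6.89 (Rsad2, H3K18la in M0).

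The replicate numbers did not pair the libraries: no comparison had all 4 same-numbered pairs above a correlation of 0.1, and 11 of 32 libraries correlated best with their own number. With the replicate block 5 members were higher in LA 24h vs 24h, Usp18 being lost (0.23, limma adjusted p = 0.062), and no other count changed. edgeR with the effective sizes of the authors, added after the data were seen, gave 6 there, and edgeR with its own normalization 5. The labels give no batch, the lactic acid dose is unknown, and there is 1 ChIP-seq library per mark and state, so peak differences have no replicate check.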
